A study of Mus musculus with 12 samples.

Results

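The 9 genes whose products carry neuronal activity to the synapse were measured in the brains of mice given tetrahydrocannabinol (THC) in adolescence and lipopolysaccharide (LPS) in adulthood. They are Npas4, Gadd45b, Arc, Homer1, Nptx2, Bdnf, Vgf, Scg2 and Ptgs2. They were taken by gene name as 9 of the 25556 genes with reads, and all 9 were among the 17208 genes with enough reads to be tested. RNA was sequenced from brain tissue of male C57BL6 mice in 12 libraries, 3 in each of 4 groups. THC_LPS mice had received daily intraperitoneal THC at 5 mg/kg over postnatal days 30 to 44 and LPS at 0.33 mg/kg on day 70. Veh_LPS mice had the same LPS dose after adolescent injections of the vehicle alone, which was 8% Tween-80 in saline. THC_Ctrl mice had the adolescent THC and saline on day 70, and Veh_Ctrl mice had vehicle and then saline. In every group the brain was taken 24 h after the day 70 injection. THC is the main psychoactive compound of cannabis, and LPS is a bacterial cell wall component that sets off an innate immune response. Nothing in the labels states that each library is a different mouse. The p-values therefore set group differences against the scatter among these libraries only, and some of that scatter may be technical.

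When a neuron fires, calcium entry activates kinases that switch on a first set of genes within minutes, most of them for transcription factors such as Fos and Egr1. Their products, and the same signals, also drive effector genes that act on the synapse. NPAS4 is a transcription factor induced by calcium entry that shapes inhibitory input, and GADD45B takes part in DNA demethylation and stress signalling. ARC promotes the internalisation of AMPA-type glutamate receptors, HOMER1 is a scaffold that ties metabotropic glutamate receptors to the postsynaptic density, and NPTX2 is a secreted pentraxin that clusters AMPA receptors. BDNF is a neurotrophin that acts through the receptor TrkB, VGF and SCG2 are precursors of secreted neuropeptides stored in dense-core vesicles, and PTGS2 (COX-2) makes prostaglandins both in excitatory neurons and, in inflammation, in blood vessels.

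The files place Npas4 at chr19:4984355-4989971 and Gadd45b at chr10:80930091-80932204 (build mm10). Arc lies at chr15:74669083-74672570, Homer1 at chr13:93303757-93404129 and Nptx2 at chr5:144545887-144557478. Bdnf lies at chr2:109674700-109727007, Vgf at chr5:137026392-137033351, Scg2 at chr1:79434669-79440120 and Ptgs2 at chr1:150100031-150108227. The reads were summed over each whole gene. The short, activity-induced form of Homer1 was therefore not separated from the long forms, nor were the alternative first exons of Bdnf. In the GENCODE M21 annotation the span of Bdnf overlaps that of the antisense gene Gm45346. The span of Homer1 overlaps those of Gm47075 and Gm47088 on its own strand. None of these 3 is listed in the count tables, and whether the counting used strand is not given in the sources used here. Whether they share exons with the members was not examined, so any reads they share could not be told apart.

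The cAMP response element TGACGTCA, and its shorter core TGACG, is the sequence to which the activity-regulated factor CREB binds. RefSeq promoters (build GRCm38.p6) matched 6 of the 9 genes, with 13 promoters among them. Arc, Nptx2 and Vgf were not matched. In the 250 bases before the start site, TGACG on either strand was found in 4 of these 13 promoters, 1 each of Npas4, Homer1, Scg2 and Bdnf, against 17.8% of 32851 promoters. The full TGACGTCA was in 1 of the 13, that of Scg2, against 1.55% of promoters. TGANTCA, the AP-1 site, was in 1 Bdnf promoter (6.75% of promoters), and TATAAA was in that of Gadd45b (12.4%). GCGTGGGCG, the EGR site, and the CArG box bound by SRF were in 0 of the 13, against 0.536% and 1.47% of promoters. These 4 promoters are shown because they hold TGACG. Capitals mark TGACG or its reverse complement CGTCA, and the start site follows the last base. Npas4 is on the minus strand at chr19:4989972-4990221, Homer1 on the plus strand at chr13:93303507-93303756, Scg2 on the minus strand at chr1:79440027-79440276 and Bdnf on the plus strand at chr2:109692186-109692435.
Npas4: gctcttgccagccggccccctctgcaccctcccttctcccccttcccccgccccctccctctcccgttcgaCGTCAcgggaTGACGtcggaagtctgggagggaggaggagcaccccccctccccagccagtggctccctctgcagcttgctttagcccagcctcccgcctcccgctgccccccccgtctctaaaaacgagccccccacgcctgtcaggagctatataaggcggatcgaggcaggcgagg
Homer1: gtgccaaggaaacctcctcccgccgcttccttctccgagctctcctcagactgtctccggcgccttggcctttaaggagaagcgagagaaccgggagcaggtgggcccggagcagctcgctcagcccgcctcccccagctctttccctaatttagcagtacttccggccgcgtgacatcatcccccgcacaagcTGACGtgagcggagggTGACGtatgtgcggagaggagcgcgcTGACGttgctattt
Scg2: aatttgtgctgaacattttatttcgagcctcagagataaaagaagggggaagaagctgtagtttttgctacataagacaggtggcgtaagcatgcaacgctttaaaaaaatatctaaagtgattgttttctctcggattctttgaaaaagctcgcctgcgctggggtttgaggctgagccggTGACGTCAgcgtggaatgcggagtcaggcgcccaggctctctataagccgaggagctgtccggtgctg
Bdnf: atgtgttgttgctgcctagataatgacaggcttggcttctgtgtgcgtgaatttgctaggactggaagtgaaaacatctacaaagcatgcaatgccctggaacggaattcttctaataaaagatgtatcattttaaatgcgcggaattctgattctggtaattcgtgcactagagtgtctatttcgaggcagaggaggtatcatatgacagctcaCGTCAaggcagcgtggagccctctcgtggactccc
In Npas4 the sites begin 179 and 169 bases before the start. Homer1 holds 3 of them, beginning 56, 40 and 14 bases before it. In Scg2 the pair of overlapping sites forms the palindrome 68 to 61 bases before the start. In Bdnf the site lies 35 to 31 bases before the start of 1 of its 7 promoters. A match describes these letters and is not evidence of binding.

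Per transcript length, the secreted precursors were the most abundant. The deposited FPKM (reads scaled by gene length and library size) had a median over the 12 libraries of 88.2 for Vgf and 74.8 for Scg2. It was 35.5 for Arc, 18.2 for Homer1, 16.2 for Nptx2 and 11.1 for Npas4. Gadd45b had a median of 8.22, Bdnf 2.58 and Ptgs2 2.08. In that order the ranges of neighbours overlapped at every step except between Gadd45b, with a lowest FPKM of 4.33, and Bdnf, with a highest of 3.06. Every member had at least 111 reads in every library, the lowest count being that of Gadd45b in THC_LPS replicate 3.

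**Figure D1:**
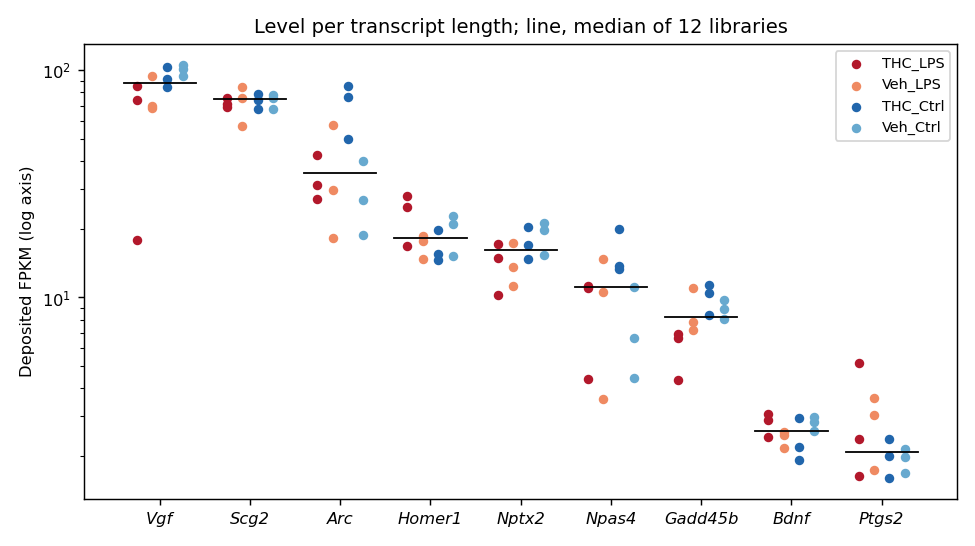
Deposited FPKM of the 9 genes on a log axis, with 1 point per library, coloured by group, and a line at the median of the 12 libraries. Medians run from 88.2 for Vgf to 2.08 for Ptgs2, and the points of Arc, Npas4 and Vgf are widely spread.

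The genes also differed in how steady they were. Levels are given from here on as CPM (read counts scaled to a common library size by TMM). Over the 12 libraries the highest CPM was 1.5 times the lowest for Scg2 and 1.57 times for Bdnf, but 4.53 times for Arc, 5.65 times for Npas4 and 6.20 times for Vgf. The SD of log2 CPM within groups was 0.74 for Npas4, 0.64 for Vgf, 0.54 for Arc and 0.52 for Ptgs2. Set against the 1000 tested genes nearest in level, these SDs were above 99.8%, 99.9%, 99.8% and 99.0% of them. The SD of Bdnf was 0.18, above 28.6% of the genes near its level, and that of Scg2 was 0.17, above 46.4%. A single library carried the spread of Vgf: without THC_LPS replicate 3 its SD was 0.18, above 87.9% of the same genes, while that of Arc was 0.57 and that of Npas4 0.77, both above 99.8%. Without it the SD of Scg2 was 0.18, above 85.9%, and that of Bdnf 0.19, above 57.0%.

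Library totals over all genes were 16.7 to 22.4 M reads in THC_LPS, 25.5 to 44.7 M in Veh_LPS, 24.7 to 25.6 M in THC_Ctrl and 24.3 to 26.4 M in Veh_Ctrl. Markers of brain cells were abundant in all 12 libraries, with summed levels of 5034 to 6237 CPM for neurons, 3094 to 4638 CPM for astrocytes and 4572 to 6477 CPM for oligodendrocytes. Of 8 genes known to respond to LPS, edgeR called 3 higher in THC_LPS than in THC_Ctrl, where it called 0.11% of all genes. It called 7 higher in Veh_LPS than in Veh_Ctrl, where it called 0.622%. All 8 had positive log2 fold changes in both comparisons, with medians of 2.271 and 2.965. THC_LPS replicate 3 stood apart: its deviations followed the GC content of genes with a Spearman correlation of -0.738, against -0.119 to 0.285 in the other 11 libraries, and 9.11% of its reads were mitochondrial, against 4.11 to 7.11%. Veh_LPS replicate 2 held summed pituitary markers at 4174 CPM, against at most 15.6 CPM in THC_LPS, THC_Ctrl and Veh_Ctrl. In bulk tissue, fewer cells of a type and less RNA per cell cannot be told apart.

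**Figure D2:**
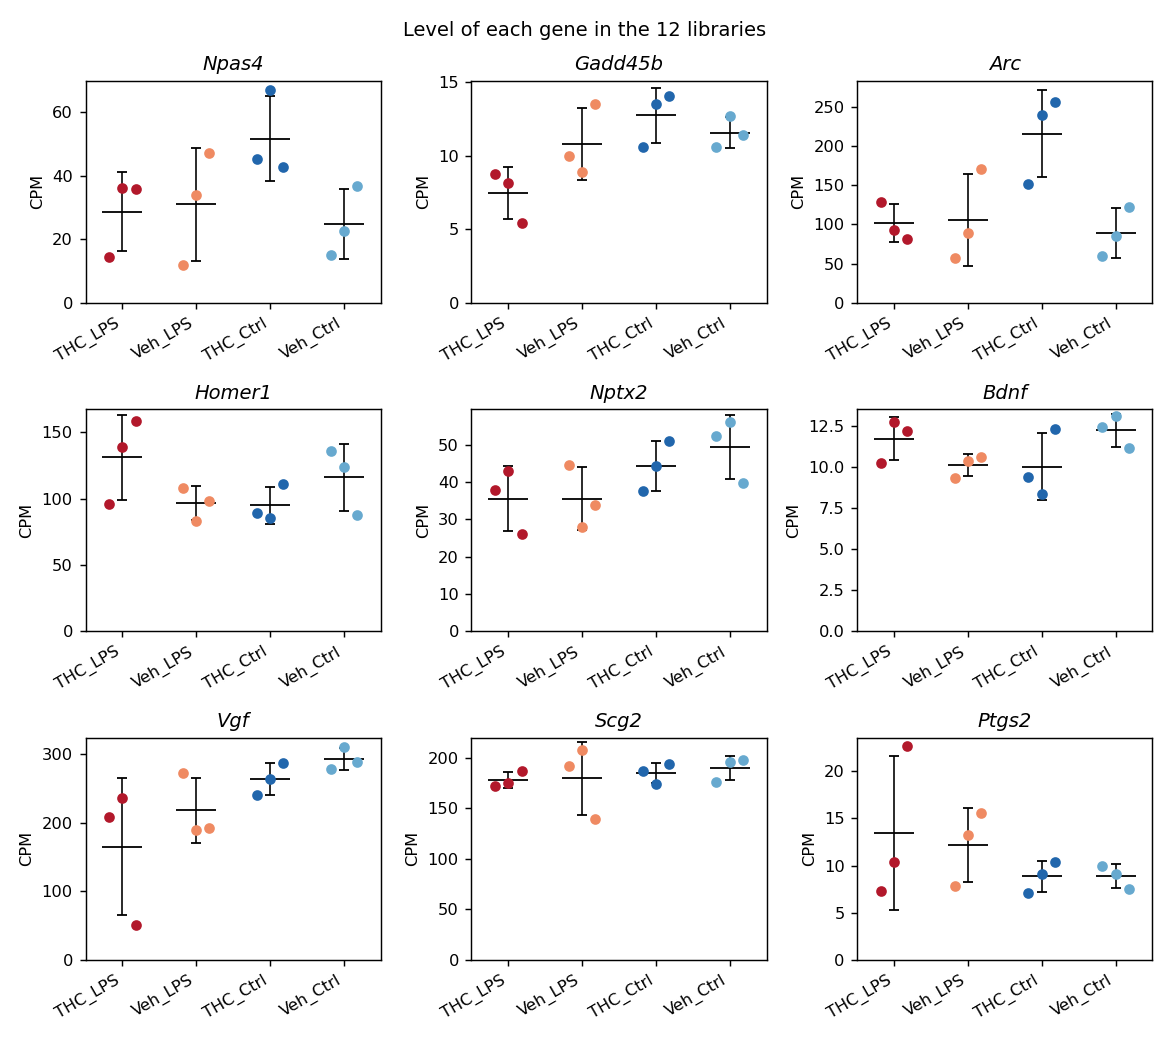
CPM of each gene, with 1 point per library, and the mean and SD of the 3 libraries of each group in black. Arc and Npas4 have their highest means in THC_Ctrl, the 3 lowest Gadd45b points are those of THC_LPS, and THC_LPS replicate 3 (right point of its group) lies far below the others for Vgf and above them for Ptgs2.

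Adolescent THC without LPS (THC_Ctrl against Veh_Ctrl) asked what remained in the adult brain when no immune challenge was given. Arc and Npas4 were higher in THC_Ctrl in every library, and neither was called by edgeR's quasi-likelihood test at an adjusted p under 0.05. Arc had 152, 239 and 256 CPM in THC_Ctrl, against 59.8, 85.2 and 122 CPM in Veh_Ctrl. All THC_Ctrl values lay above all Veh_Ctrl values. The edgeR log2 fold change was 1.27 ± 0.34 (SE, n = 3 per group), with an adjusted p of 0.868 and an unadjusted p of 0.00176. Npas4 had 45.2, 67.03 and 42.8 CPM in THC_Ctrl, against 15.0, 22.5 and 36.8 CPM in Veh_Ctrl, again without overlap. Its log2 fold change was 1.06 ± 0.47 (edgeR, adjusted p = 1.0, unadjusted p = 0.0417). With any 1 library left out, the value for Arc stayed between 1.05 and 1.60, and that for Npas4 between 0.80 and 1.49.

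The other 7 genes overlapped between THC_Ctrl and Veh_Ctrl. Their log2 fold changes ran from -0.29 (Bdnf, 10.02 ± 2.04 CPM in THC_Ctrl and 12.3 ± 0.998 in Veh_Ctrl) to 0.14 (Gadd45b, 12.7 ± 1.88 CPM in THC_Ctrl and 11.6 ± 1.07 in Veh_Ctrl). Scg2 had the narrowest interval, with a log2 fold change of -0.04 and 2 SE reaching from -0.32 to 0.24. Homer1 averaged 95.1 ± 14.0 CPM in THC_Ctrl and 116 ± 25.1 in Veh_Ctrl, a log2 fold change of -0.29 ± 0.19, below 0 where Arc and Npas4 were above it. In all, edgeR called 0 of the 9 members, where it called 0.0% of all genes tested. At an unadjusted p under 0.05 there were 2 of 9, against 3.62% of genes. Groups did not overlap for 2 members, both higher in THC_Ctrl, against 5.96% of genes higher and 6.85% lower. The median log2 fold change was -0.04 over the members and -0.01 over all genes tested. Voom with sample weights, which gives noisier libraries less weight, called 1 member, Arc, at a log2 fold change of 1.48 and an adjusted p of 0.00922, and 0.622% of all genes. DESeq2 called 0 of the 9 and 0.0548% of all genes.

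**Figure D3:**
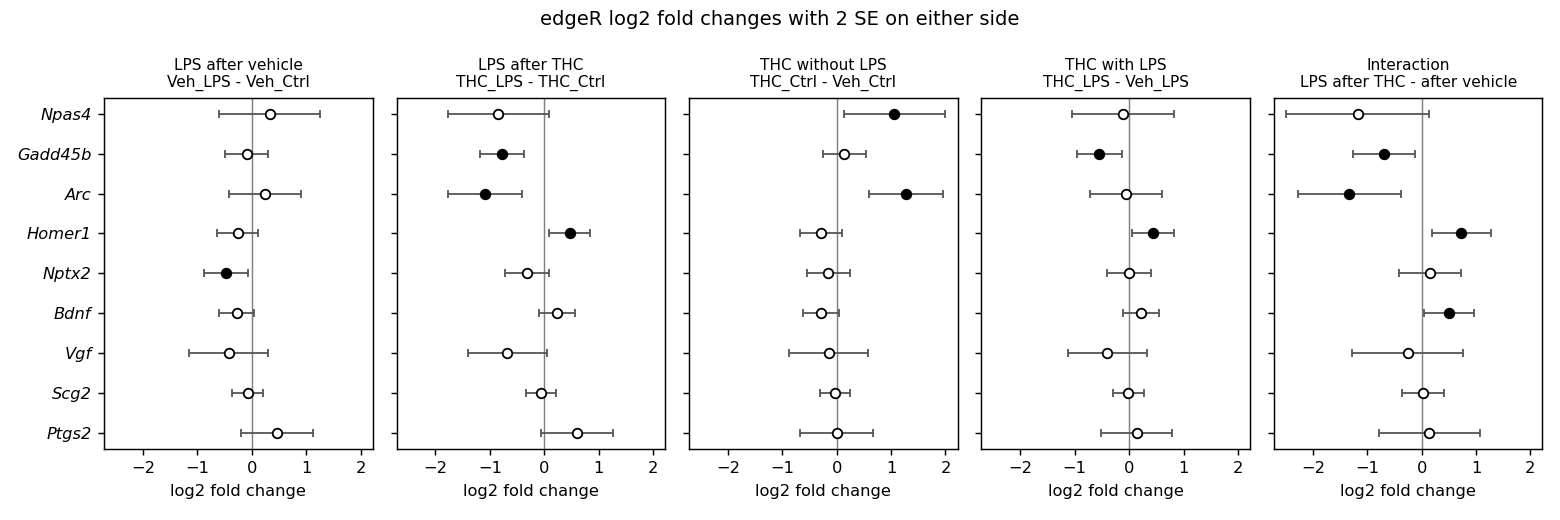
edgeR log2 fold changes of the 9 genes in the 5 comparisons, tested group minus its control as written above each panel, with bars of 2 SE on either side. Filled points lie more than 2 SE from 0 (among them Arc and Npas4 above 0 for THC without LPS, Arc and Gadd45b below 0 for LPS after THC), and no point passed the adjusted threshold.

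The genes of the first wave of the activity response lay on the same side of 0 as Arc. The list of 17 rapid regulators holds Fos, Fosb, Fosl2, Junb, Egr1 to Egr4, Nr4a1 to Nr4a3, Ier2, Btg2, Atf3, Dusp1, Dusp5 and Dusp6, most of which encode transcription factors or phosphatases of the kinase cascade. The list was chosen with earlier results of these data known, so its directions, here and in the comparisons below, are a description and not a test. All 17 had a positive log2 fold change in THC_Ctrl relative to Veh_Ctrl, with a median of 1.04, against -0.01 over all genes tested. Groups did not overlap for 15 of them, all higher, against 5.96% of all genes higher and 6.85% lower. EdgeR called 0 of the 17, where it called 0.0% of all genes, while 15 had an unadjusted p under 0.05, against 3.62%. The smallest p were those of Egr1, at 305 ± 54.4 CPM in THC_Ctrl and 149 ± 24.8 CPM in Veh_Ctrl, and Fosb, at 29.2 ± 7.88 CPM in THC_Ctrl and 9.98 ± 2.36 CPM in Veh_Ctrl, both with an adjusted p of 0.0939. The direction held for 17 of 17 under every alternative fit. DESeq2 called 8 of them, all higher, of 14 genes in all (0.0548%). Voom with sample weights called 15, all higher, against 0.622% of all genes. EdgeR with the replicate number as a block called 6, where it called 0.0407% of all genes, and edgeR on only the compared groups called 2, where it called 0.055%.

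Effectors outside the 9 genes lay on both sides of 0. Of 20 further activity-induced effectors, 8 had a positive and 12 a negative log2 fold change in THC_Ctrl relative to Veh_Ctrl, with a median of -0.05. EdgeR called 0 of the 20, and 3 were higher and 2 lower at an unadjusted p under 0.05, against 3.62% of all genes in either direction. Sik1, a kinase induced by cAMP signalling, had the smallest p of them (log2 fold change 1.13 ± 0.21, edgeR adjusted p = 0.161). Inhba, a subunit of activin and chosen after its value was seen, was below 0 (log2 fold change -0.74 ± 0.28, edgeR adjusted p = 1.0).

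Summed levels of regional and cell type markers also shifted between these groups, some of them with overlap. The summed level of 9 cerebellar neuron markers was 1553 to 1665 CPM in THC_Ctrl, against 1234 to 1487 CPM in Veh_Ctrl, with 9 of 9 log2 fold changes above 0 and a median of 0.24. That of 8 cortical and hippocampal excitatory neuron markers was 4263 to 4622 CPM in THC_Ctrl and 4372 to 6001 CPM in Veh_Ctrl, with 8 of 8 below 0 and a median of -0.27. Astrocyte markers summed to 3094 to 3537 CPM in THC_Ctrl and 3817 to 4490 CPM in Veh_Ctrl, with 3 of 8 above 0, 5 below and a median of -0.11. Much of that sum was Slc1a2, at 1961 ± 170 CPM in THC_Ctrl and 2695 ± 325 CPM in Veh_Ctrl. Caudal Hox genes, which mark the hindbrain and spinal cord, summed to 2.04 to 18.1 CPM in THC_Ctrl and 0.0 to 3.65 CPM in Veh_Ctrl. Striatal neuron markers were below 0 for 8 of 8 (median -0.15), and general neuron markers for 7 of 8 (median -0.07). GABAergic neuron markers were above 0 for 5 of 8. EdgeR called 0 genes of these lists. Their part in the values of Arc, Npas4 and the regulators was not tested.

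**Figure D4:**
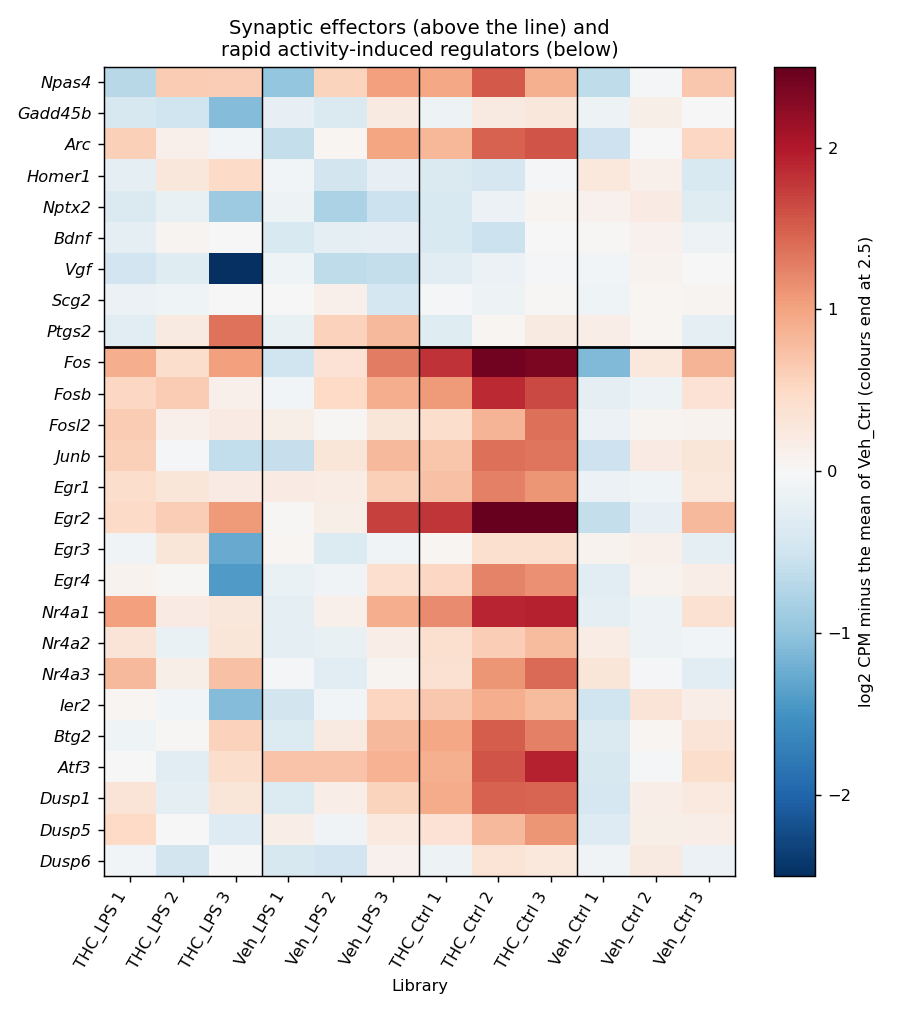
Log2 CPM of the 9 synaptic effectors (above the line) and the 17 rapid regulators (below) in each of the 12 libraries, minus the mean of Veh_Ctrl, with red above it and blue below. The 3 THC_Ctrl libraries are red for Arc, Npas4 and nearly all regulators, while Vgf and Scg2 are near white there.

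LPS after adolescent THC (THC_LPS against THC_Ctrl) shares the THC_Ctrl libraries with the comparison above, so the values for the same genes are tied to it. Arc, Npas4, Gadd45b and Vgf were lower in all THC_LPS libraries, and edgeR called none of them. Arc had 128, 93.2 and 81.9 CPM in THC_LPS, against 152, 239 and 256 CPM in THC_Ctrl. The THC_LPS values lie between the lowest and the highest Veh_LPS library. The log2 fold change was -1.09 ± 0.34 (edgeR, adjusted p = 0.149). Npas4 had 14.3, 36.2 and 35.7 CPM in THC_LPS, against 45.2, 67.03 and 42.8 CPM in THC_Ctrl, or -0.84 ± 0.47 as a log2 fold change (edgeR, adjusted p = 0.33), and -0.53 ± 0.51 without THC_LPS replicate 1. Gadd45b had 8.73, 8.17 and 5.43 CPM in THC_LPS, against 10.6, 13.5 and 14.1 CPM in THC_Ctrl. Those 3 THC_LPS values were also below every library of Veh_LPS and Veh_Ctrl. The difference on the log2 scale was -0.78 ± 0.20 (edgeR, adjusted p = 0.125), and -0.56 without THC_LPS replicate 3, its lowest library.

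Arc and Gadd45b were the members that other tools called here. Voom with sample weights called both, Arc at a log2 fold change of -1.06 (adjusted p = 0.031) and Gadd45b at -0.65 (adjusted p = 0.0459), among 5.75% of all genes. DESeq2 on the 12 libraries called Gadd45b (adjusted p = 0.033), among 2.74% of the genes it gave an adjusted p. DESeq2 on the 6 libraries of these groups, added after seeing the data, called Arc (adjusted p = 0.0027), among 0.826%. The authors' deposited table gives an adjusted p of 0.00277 for Arc and 0.115 for Gadd45b, and lists 0.857% of its genes under 0.05, without naming a comparison. Ranked over 16921 genes, those deposited values had a Spearman correlation of 1.0 with the 6-library DESeq2 fit of THC_LPS against THC_Ctrl, and of at most 0.263 with the other pairs of groups. The ranks matched but most values did not: 29.3% of genes had an adjusted p within 0.01 of the deposited one in that fit.

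The rapid regulators again lay on the same side of 0 as Arc. All 17 had a negative log2 fold change in THC_LPS relative to THC_Ctrl, with a median of -1.09, against -0.01 over all genes tested. Groups did not overlap for 12, all lower in THC_LPS, against 13.5% of all genes lower and 9.83% higher. EdgeR called 0, where it called 0.11% of all genes, and 14 had an unadjusted p under 0.05, against 19.4%. Dusp1, a phosphatase that switches off MAP kinases, had the smallest p of them (log2 fold change -1.16 ± 0.23, edgeR adjusted p = 0.0736). DESeq2 called 7 of the 17, all lower, against 2.74% of the genes it gave an adjusted p. Voom with sample weights called 14, all lower, against 5.75% of all genes. EdgeR with the replicate number as a block called 3, where it called 0.11% of all genes. The 17 negative values held under every alternative fit. Their summed level was 620 to 814 CPM in THC_LPS and 969 to 1432 CPM in THC_Ctrl. In Veh_LPS it was 564 to 869 CPM, and in Veh_Ctrl 529 to 681 CPM. Cerebellar markers were lower in THC_LPS too, at 1286 to 1441 CPM against 1553 to 1665 CPM in THC_Ctrl, with 9 of 9 log2 fold changes below 0, and their part was not tested.

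Homer1 was on the other side of 0 from Arc. It had 95.9, 139 and 158 CPM in THC_LPS, against 89.1, 85.1 and 111 CPM in THC_Ctrl. The groups overlapped through THC_LPS replicate 1. The log2 fold change was 0.46 ± 0.19 (edgeR, adjusted p = 0.214). Its partner Grm5, the metabotropic receptor that HOMER1 binds, was at 0.76 ± 0.21 on the log2 scale (edgeR, adjusted p = 0.132). The AMPA receptor subunits Gria2 and Gria3 had 0.77 ± 0.21 and 0.71 ± 0.20 (edgeR, adjusted p = 0.128 and 0.135). Within THC_LPS, Grm5 ran from 109.3 to 176.5 CPM, Gria2 from 330.4 to 598.1 and Gria3 from 126.9 to 209.5. Values of Grm5, Gria2 and Gria3 without single libraries or GC trends are not given here. THC_LPS replicate 3 held the highest Homer1 level, and Homer1 has a GC content of 43.5%. Without that library its log2 fold change was 0.34 ± 0.19, and with each library's GC trend removed it was 0.21 ± 0.16. Of the 10 Homer partners and scaffolds, 2 were higher and 1 lower at an unadjusted p under 0.05. Of the 9 AMPA receptor and pentraxin genes 4 were higher, against 19.4% of all genes in either direction. EdgeR called 0 of either list.

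Vgf and Ptgs2 rested on THC_LPS replicate 3. Vgf had 209, 236 and 50.1 CPM in THC_LPS, against 240, 264 and 287 CPM in THC_Ctrl. Its log2 fold change of -0.68 ± 0.36 (edgeR, adjusted p = 0.309) was -0.21 ± 0.13 without that library. Ptgs2 had 7.24, 10.4 and 22.7 CPM in THC_LPS, against 7.12, 9.11 and 10.4 CPM in THC_Ctrl. Its log2 fold change of 0.60 ± 0.33 (edgeR, adjusted p = 0.32) was 0.03 ± 0.26 without it. Vgf has the highest GC content of the 9 genes, 64.4%, and Ptgs2 one of the lowest, 42.6%. Markers of endothelial cells, which can express Ptgs2 in inflammation, summed to 334 to 383 CPM in THC_LPS and 245 to 268 CPM in THC_Ctrl, and their part in Ptgs2 was not tested.

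The intervals of the remaining 3 members included 0. Nptx2 had 37.8, 42.9 and 26.0 CPM in THC_LPS, against 37.7, 44.3 and 51.1 CPM in THC_Ctrl. Its log2 fold change was -0.32 ± 0.20 (edgeR, adjusted p = 0.383), and -0.10 without THC_LPS replicate 3. Bdnf had 10.3, 12.8 and 12.2 CPM in THC_LPS, against 9.39, 8.37 and 12.3 CPM in THC_Ctrl. The groups overlapped, and the log2 difference was 0.23 ± 0.16 (edgeR, adjusted p = 0.441), or -0.08 ± 0.17 with GC trends removed. Scg2 had 173, 175 and 187 CPM in THC_LPS, against 187, 174 and 194 CPM in THC_Ctrl, and its log2 fold change was -0.05 ± 0.14.

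Over the 9 members, edgeR called 0 for LPS after THC, where it called 0.11% of all genes. At an unadjusted p under 0.05 there were 3, against 19.4% of genes. Groups did not overlap for 4 members, all lower in THC_LPS, against 13.5% of genes lower and 9.83% higher. The median log2 fold change of the members was -0.32, and that of all genes -0.01.

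**Figure D5:**
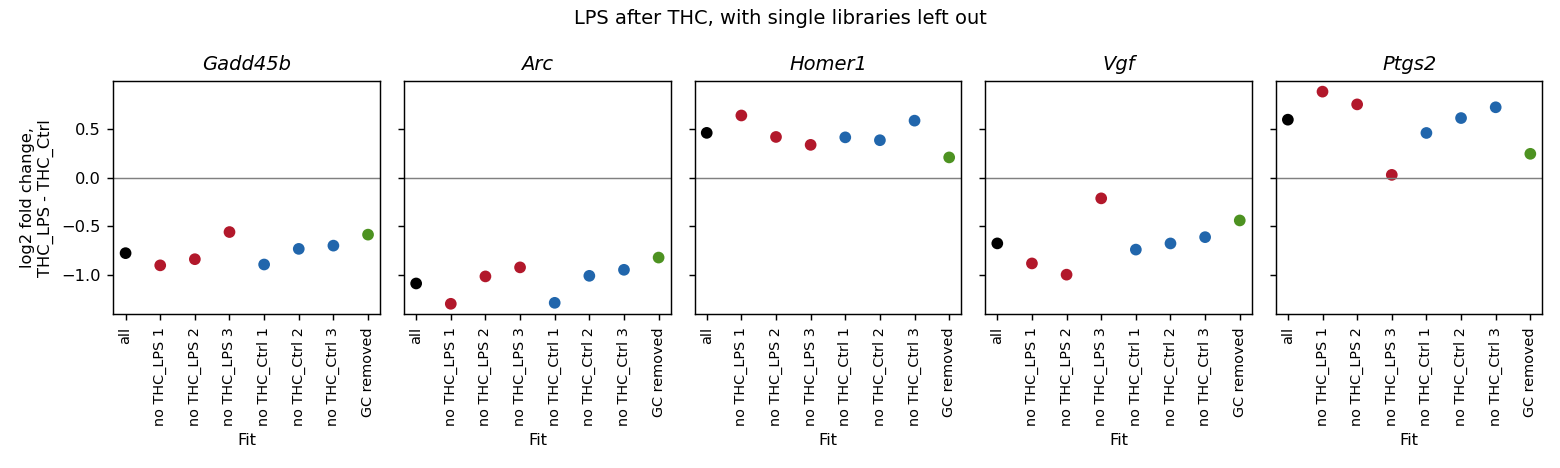
Log2 fold change of 5 genes for THC_LPS minus THC_Ctrl in the fit of all 12 libraries (black), with each THC_LPS (red) or THC_Ctrl (blue) library left out, and with GC trends removed (green). Arc and Gadd45b stay below 0 throughout, while Vgf moves to -0.21 and Ptgs2 to 0.03 without THC_LPS replicate 3.

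LPS after adolescent vehicle (Veh_LPS against Veh_Ctrl) gave the immune challenge without earlier THC. No member was called by edgeR, where it called 0.622% of all genes, and the values of Arc and Npas4 overlapped widely. Arc had 56.5, 88.8 and 170 CPM in Veh_LPS, against 59.8, 85.2 and 122 CPM in Veh_Ctrl. The log2 fold change was 0.24 ± 0.33, and without Veh_LPS replicate 3, the most deeply sequenced library, it was -0.30. Npas4 had 11.9, 34.0 and 47.0 CPM in Veh_LPS, against 15.0, 22.5 and 36.8 CPM in Veh_Ctrl. Bdnf and Vgf were the members whose groups did not overlap. Bdnf had 9.36, 10.4 and 10.6 CPM in Veh_LPS, against 12.5, 13.1 and 11.2 CPM in Veh_Ctrl, without overlap, and the log2 difference was -0.28 ± 0.16 (edgeR, adjusted p = 0.757). Vgf had 272, 189 and 192 CPM in Veh_LPS, against 279, 311 and 289 CPM in Veh_Ctrl, also without overlap, and the log2 difference was -0.43 ± 0.36 (edgeR, adjusted p = 0.821).

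Nptx2 was the member with the smallest p for LPS after vehicle. It had 44.7, 28.1 and 33.8 CPM in Veh_LPS, against 52.3, 56.0 and 39.7 CPM in Veh_Ctrl, with an overlap through Veh_LPS replicate 1. The log2 fold change was -0.48 ± 0.20 (edgeR, adjusted p = 0.621), and -0.33 ± 0.22 without Veh_LPS replicate 2, the library with pituitary markers. Vgf without that library was at -0.33 ± 0.42. Voom with sample weights called both, Nptx2 at -0.65 (adjusted p = 0.00745) and Vgf at -0.55 (adjusted p = 0.0271), among 10.8% of all genes. DESeq2 called 0 of the 9 and 0.995% of all genes. Ptgs2 had 7.81, 13.2 and 15.5 CPM in Veh_LPS, against 9.97, 9.15 and 7.56 CPM in Veh_Ctrl, or 0.46 ± 0.33 as a log2 fold change (edgeR, adjusted p = 0.787), and 0.24 ± 0.36 without Veh_LPS replicate 3. At an unadjusted p under 0.05 there was 1 member of 9, against 7.45% of genes. Groups did not overlap for 2 members, both lower in Veh_LPS, against 9.07% of genes lower and 6.96% higher. The median log2 fold change was -0.09 over the members and -0.04 over all genes. Endothelial markers summed to 337 to 390 CPM in Veh_LPS and 275 to 287 CPM in Veh_Ctrl. Hox genes summed to 20.3 to 26.6 CPM in Veh_LPS and 0.0 to 3.65 CPM in Veh_Ctrl. EdgeR called 2 endothelial and 3 Hox genes, all higher in Veh_LPS. Markers of cortical and hippocampal excitatory, GABAergic and striatal neurons were below 0 for 8 of 8 in each list. Their median log2 fold changes were -0.26, -0.14 and -0.20, and edgeR called 0 of them. Of 9 cerebellar markers, 4 were above 0 and 5 below. The part of these differences in the values of the members was not tested.

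THC with LPS (THC_LPS against Veh_LPS) compared the challenged groups. Arc averaged 101 ± 24.3 CPM in THC_LPS and 105 ± 58.6 CPM in Veh_LPS, and Npas4 averaged 28.7 ± 12.5 CPM in THC_LPS and 31.0 ± 17.8 CPM in Veh_LPS. Their log2 fold changes of -0.06 and -0.11 had 2 SE reaching from -0.73 to 0.61 and from -1.04 to 0.82, which does not show that the groups were alike. Without Veh_LPS replicate 3, which had the highest Arc level of its group, Arc was at 0.48 ± 0.30. Gadd45b was the member without overlap, with 8.73, 8.17 and 5.43 CPM in THC_LPS, against 9.95, 8.91 and 13.5 CPM in Veh_LPS. Its log2 fold change was -0.55 ± 0.20 (edgeR, adjusted p = 0.478), and -0.35 ± 0.19 without THC_LPS replicate 3 or -0.34 ± 0.21 without Veh_LPS replicate 3. Of the 7 genes of the GADD45 family and active demethylation, Tet1, an enzyme that oxidises methylcytosine, had the smallest p and was at 0.47 ± 0.15 (edgeR, adjusted p = 0.478). Gadd45g came next, at -0.57 ± 0.24 with the same adjusted p by edgeR. Homer1 had 95.9, 139 and 158 CPM in THC_LPS, against 108, 83.3 and 98.4 CPM in Veh_LPS. The groups overlapped, at 0.44 ± 0.19 on the log2 scale (edgeR, adjusted p = 0.478) and 0.21 ± 0.16 after GC trends were removed. Vgf was at -0.40 ± 0.36 and Ptgs2 at 0.14 ± 0.32 on the log2 scale, and without THC_LPS replicate 3 Vgf was at 0.04 and Ptgs2 at -0.46. No member was called by edgeR (0 of 9), nor any gene (0.0%). DESeq2 called 0 of the 9 and 0.00783% of all genes, and voom with sample weights 0 of the 9 and 0.0116%. At an unadjusted p under 0.05 there were 2 members, against 10.3% of genes. The 1 member without overlap stands against 6.12% of genes lower and 5.61% higher in THC_LPS. The median log2 fold change was -0.01 over the members and -0.00 over all genes.

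Whether LPS acted differently after THC than after vehicle was tested as the interaction (LPS after THC minus LPS after vehicle). Arc had the largest departure from 0 of the 9 genes, -1.33 ± 0.47 on the log2 scale (edgeR, adjusted p = 0.71, unadjusted p = 0.0127). Npas4 had -1.17 ± 0.66 and Gadd45b -0.69 ± 0.28. Homer1 had 0.73 ± 0.27 and Bdnf 0.51 ± 0.23. The value of Arc was -0.80 ± 0.39 and that of Npas4 -0.73 ± 0.59 without Veh_LPS replicate 3, and that of Bdnf 0.22 ± 0.24 with GC trends removed. With all libraries, Arc and Gadd45b lay more than 2 SE below 0 and Homer1 and Bdnf more than 2 SE above it, while the interval of Npas4 included 0. EdgeR called 0 of the 9 members and 0.0% of all genes. DESeq2 called 0 of the 9 and 0.00391% of all genes, and voom with sample weights 0 of the 9 and 0.0349%. At an unadjusted p under 0.05 there were 4 members (Arc, Homer1, Bdnf and Gadd45b), against 6.78% of genes. The median over the 9 members was 0.03, and that over all genes -0.00. The 17 rapid regulators all had negative values, with a median of -1.30, 0 calls by edgeR and 13 at an unadjusted p under 0.05. Without Veh_LPS replicate 3, and by voom with sample weights, 16 of the 17 were negative. Voom with sample weights called 4 of the 17, all lower, and DESeq2 called 0.

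The other partners of the 9 genes gave no call by edgeR in any of the 5 comparisons. Among 11 BDNF receptor and processing genes, Ntrk2, which encodes TrkB, had the smallest p for LPS after THC, at 0.33 ± 0.11 on the log2 scale (edgeR, adjusted p = 0.169). Among 10 granins and prohormone-processing genes, Cpe, the carboxypeptidase that trims neuropeptide precursors, was at -0.53 ± 0.14 for THC without LPS (edgeR, adjusted p = 0.868) and -0.47 ± 0.14 for LPS after vehicle (edgeR, adjusted p = 0.268). These comparisons share the Veh_Ctrl libraries. Among 11 prostanoid genes, Ptges2, a prostaglandin E synthase, was at -0.61 ± 0.23 for LPS after THC (edgeR, adjusted p = 0.182). Of 7 genes of the GADD45 family and active demethylation, Gadd45g was at -0.86 ± 0.24 for LPS after THC (edgeR, adjusted p = 0.132). Among 10 partners of NPAS4 and CREB regulators, Mef2c, a neuronal transcription factor, had an interaction of 0.82 ± 0.31 (edgeR, adjusted p = 0.71).

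Across libraries the members did not form a single pattern. Likeness was measured as Pearson's r of log2 CPM over the 12 libraries, among 14727 genes averaging 1 CPM or more, and is a description, since the libraries share their groups and their depth differs. The genes most like Arc were Nr4a1 (r = 0.958), Junb (0.954) and Fos (0.937), all rapid regulators. After subtraction of the group means Arc was most like Gm14137 (0.945), Nr4a1 (0.943) and Junb (0.924). Among those most like Npas4 were Btg2 (0.875), an antiproliferative activity gene, and Zic5 (0.866), a zinc finger factor. Arc and Npas4 had an r of 0.735 with each other, and 0.552 after subtraction of the group means. Homer1 was most like Arpp21 (0.908), Tle4 (0.907) and Rgs20 (0.904), and had an r of -0.496 with Arc and 0.74 with Bdnf.

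The rest had other neighbours. Vgf was most like Sema4a (0.991), Ppp2r5b (0.989) and Fscn1 (0.988), and Ptgs2 most like Eif4e3 (0.919), Zfp788 (0.918) and Xrn1 (0.917). Over the 11 libraries without THC_LPS replicate 3, a choice made after seeing the data, those r were 0.918, 0.922 and 0.925 for Vgf and 0.836, 0.843 and 0.829 for Ptgs2. Vgf and Ptgs2 had an r of -0.799 with each other, and -0.491 without that library. Gadd45b was most like Hlx and Mrps11 (0.962 each) and Tmem25 (0.94). Nptx2 was most like Cx3cl1 (0.949), Slc35d3 (0.939) and Gpr133 (0.937), and Bdnf most like Trpv3 (0.887), Spata9 (0.875) and Slc1a3 (0.846). Scg2, the steadiest member, was most like Ctf1 (0.823), Gabre (0.775) and Cartpt (0.758).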

How the data were processed

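Per the labels' protocols, brain RNA was prepared with TRIzol followed by a PureLink column. STAR 2.5, HTSeq, DESeq2 and mm10 appear, without roles, in the submitters' processing notes. The brain region, the library kit, strandedness and the annotation version were each not given in the sources used here. Raw counts for every gene, as deposited by the authors, were joined by gene ID with a gene absent from a table taken as 0 reads, and were the input of every test. FPKM was deposited by the authors and used only to order levels between genes. 1 table also holds the authors' adjusted p-value, per the file headers, which is printed only as theirs. The deposited normalized values were not used.

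All 12 libraries entered 1 fit in edgeR 4.0.16 (R 4.3.3) with 1 mean for each group, TMM scaling, filterByExpr (17208 of 25556 genes kept), robust quasi-likelihood tests and Benjamini-Hochberg adjustment over all genes tested. Calls were made where the adjusted p was under 0.05. The SE is the absolute log2 fold change divided by the square root of F, which is approximate. CPM is the read count scaled to a common library size by TMM, with the SD over 3 libraries. Log2 CPM used a prior count of 2. The named genes were all members and, from other lists, the 1 or 2 with the smallest p in a comparison. Members and lists were chosen with earlier results of these data known. The procedure was tested on simulated counts with changes placed in Veh_LPS only, for LPS after vehicle. The other comparisons were not simulated. The alternatives tried were voom with sample weights (limma 3.58.1), DESeq2 1.42.0, other scaling and filters, only the compared groups, a replicate block, GC and gene length trends removed by loess (span 0.5), and each library left out. The smallest chi-square per degree of freedom between libraries of a group was 10.5, so none was a repeat deposit of another in its group. Libraries of different groups were not compared in this way. Library totals of 16.7 to 44.7 M reads limit the precision of low counts. 1 gene among those most like Npas4 is not reported here.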

Additional observations from a re-analysis of the deposited data

How the results depend on the processing

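Of the 9 members, edgeR called 0 in each of the 5 comparisons under every alternative within edgeR, and 0 with any 1 library left out (range 0 to 0). DESeq2 called 1 for LPS after THC (Gadd45b), and on only the 6 compared libraries, chosen after seeing the data, 1 (Arc). Voom with sample weights called 2 for LPS after vehicle, 2 for LPS after THC and 1 for THC without LPS. The cause was not tested. Of 1017 log2 fold changes of members under alternatives, 7 crossed to the called side and 63 had the other sign. None of these 63 was among the 268 whose reported value was more than 2 SE from 0. Of those reported within 2 SE of 0, 31 moved by over 1 SE without a call. Over all genes, the number called ran from 33 to 1853 for LPS after vehicle, 0 to 990 for LPS after THC, 0 to 107 for THC without LPS, 0 to 5 for THC with LPS and 0 to 6 for the interaction, against 107, 19, 0, 0 and 0 as reported. Over all genes tested, libraries with the same replicate number did not deviate together (r from -0.156 to 0.101, and -0.157 to 0.189 for different numbers). With 3 libraries a group, these correlations cannot exclude that the numbers pair libraries for some genes. With the replicate number as a block edgeR called 0 of the 9 members in every comparison, and 7 of all genes for THC without LPS, 6 of them rapid regulators. Depth was 16.7 to 22.4 M reads in THC_LPS, the shallowest group, and Ptgs2, Bdnf and Gadd45b had fewer than 500 reads in most libraries.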
